A study of Mus musculus with 6 samples.

Results

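The 10 genes described here encode enzymes that make serine, the folate-bound one-carbon units drawn from it, proline and asparagine. They were taken by name (Phgdh, Psat1, Psph, Shmt1, Shmt2, Mthfd2, Mthfd1l, Aldh18a1, Pycr1 and Asns), and all 10 of these, of 55291 genes listed, were among the 14290 with enough counts to be tested. RNA-seq of polyA RNA was carried out on wild-type mouse embryonic fibroblasts (WT MEFs), cells of the embryo's connective tissue grown in culture. There were 2 libraries with vehicle, 2 with the mitofusin activator MASM7 (1 μM, 6 h) and 2 with the mitofusin inhibitor MFI8 (20 μM, 6 h), and the sources used here give no time for vehicle. Mitofusins are the outer membrane proteins through which mitochondria fuse, and MASM7 and MFI8 are small molecules aimed at them. The series describes its replicates as independent and biological, all cells were WT MEFs obtained from another laboratory, and the labels name no clone, passage or day. Because the compounds were given at different concentrations, compound and concentration cannot be told apart in any comparison between them.

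Serine is built from a glycolytic intermediate in the cytosol by Phgdh, Psat1 and Psph acting in turn. Serine hydroxymethyltransferase then passes a carbon from serine to folate and leaves glycine, in the cytosol as Shmt1 and in mitochondria as Shmt2. Within mitochondria Mthfd2 oxidises the folate-bound carbon and Mthfd1l releases it as formate for nucleotide synthesis. Aldh18a1 and Pycr1 carry out early and final steps of proline synthesis in mitochondria, and Asns makes asparagine from aspartate and glutamine. Several of these genes are known targets of ATF4, the transcription factor of the integrated stress response, which binds composite elements that it shares with C/EBP partners.

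The promoters of 3 members are shown because they held a motif that was searched for. The windows searched ran from 250 bases before to 50 bases after each start site in RefSeq for GRCm38.p6, on both strands. The letters TGATGNAA, the core of the element bound by ATF4 with a C/EBP partner, were in the windows of Asns and Pycr1, and CACGTG, the E-box read by MYC and related factors, was in that of Aldh18a1. The motifs do not overlap each other. Capitals mark the match in each sequence below, which is written 5′ to 3′ on the gene's own strand.
Asns: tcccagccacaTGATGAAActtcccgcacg
Pycr1: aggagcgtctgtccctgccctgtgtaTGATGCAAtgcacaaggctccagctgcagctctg
Aldh18a1: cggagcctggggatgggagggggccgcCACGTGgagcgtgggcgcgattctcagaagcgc

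The Asns sequence lies at chr6:7693214-7693243 on the minus strand, upstream of the RefSeq start site, with the first base of the match at position -23. The Pycr1 sequence lies at chr11:120643818-120643877 on the minus strand, with the match beginning at position -103. The Aldh18a1 sequence lies at chr19:40588490-40588549, also on the minus strand, with its E-box beginning at position -59. All 3 stretches lie outside the transcribed part of these RefSeq models, and those of Pycr1 and Aldh18a1 also lie upstream of the genes as GENCODE gives them on GRCm38. GENCODE extends Asns to position 7693254, so the stretch shown falls within its longer gene model. Of 32851 promoters of this length in the same table, 3.97% held TGATGNAA and 7.15% held CACGTG, and the windows of the other 7 members held neither set of letters. A match is a description of sequence and not a bound site.

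Total counts were between 22791792 and 30677751 per library, and 20599 to 21558 genes had counts in a library. The 8 fibroblast markers were all tested and summed to 7970 CPM or more in every library (CPM, counts per 1000000 counts, scaled with TMM factors), although Thy1 was under 1 CPM in each. The 5 epithelial and 4 endothelial markers were each under 1 CPM in every library, and the 5 immune markers summed to 10.2 to 13.9 CPM with Ptprc, Adgre1 and Cd3e under 1 CPM. Counts on mitochondrially encoded genes took 1.66% and 1.82% of each vehicle library, 1.61% and 1.51% of the MASM7 libraries and 1.37% and 1.43% of the MFI8 libraries. Since RNA was taken from whole cultures, a change in the cells present and a change in RNA per cell cannot be told apart.

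Levels of the members were compared with each other on the TPM scale, which accounts for transcript length. Psat1, the aminotransferase of serine synthesis, had the highest mean over the 6 libraries (587 TPM, range 547 to 617). It was followed by Shmt2 (575 TPM, range 526 to 626) and Phgdh (528 TPM, range 479 to 581), and the ranges of these 3 genes overlapped one another. They stood at ranks 220 to 252 of the 14290 genes tested.

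A middle group followed, in which Asns (260 TPM, range 215 to 311), Aldh18a1 (220 TPM, range 193 to 247) and Mthfd2 (219 TPM, range 187 to 256) overlapped in range. Mthfd1l (117 TPM, range 111 to 132) and Shmt1 (116 TPM, range 110 to 121) were lower and also overlapped each other. Psph, the phosphatase that completes serine synthesis, was at 54.5 TPM (range 48.1 to 63.9) and Pycr1 at 19.4 TPM (range 17.2 to 21.8), each apart from its neighbours in this order. Pycr1 stood at rank 7077, near the middle of the genes tested.

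Among pairs of related enzymes, Shmt2 and Mthfd2 were more abundant than their counterparts in these fibroblasts. The ratio of Shmt2 to its cytosolic counterpart Shmt1, in TPM, was 4.34 and 4.89 for vehicle, 4.87 and 5.51 for MASM7 and 4.74 and 5.49 for MFI8. The ratio of Mthfd2 to Mthfd2l, a related mitochondrial enzyme, was 9.41 and 9.87 for vehicle, 10.01 and 10.6 for MASM7 and 11.9 and 13.2 for MFI8. The 3 groups did not overlap in this ratio, although they did in Mthfd2 alone. Mthfd2l was lower in both MFI8 libraries (33.8 and 35.9 CPM) than in both vehicle libraries (37.5 and 42.7 CPM), a pattern held by 19.3% of all genes. How many other ratios keep the groups apart was not counted. Taken as a sum, the 10 members made up 2443 and 2647 TPM for vehicle, 2618 and 2875 for MASM7 and 2652 and 2935 for MFI8, so that the vehicle range overlapped that of MASM7 and ended just below that of MFI8.

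Changes were tested in edgeR with its quasi-likelihood test on raw counts, with Benjamini-Hochberg adjustment over all 14290 genes, and every adjusted p from edgeR below is of this kind unless the count filter is said to be left out, when it is over more genes. Log2 fold changes come from the same fits and are followed by their standard errors. The fit was run without and with the replicate number as a block, a term that removes what libraries of the same number share. In that fit, with the count filter and without the block, no gene passed an adjusted p of 0.05 in any of the 3 comparisons, so the background share of called genes was 0% and no member was called. Without the count filter, the fit without the block called 256 genes with MFI8, none of them a member, and 127 with MASM7, among them Phgdh and Shmt2 (adjusted p = 0.0210 for each, edgeR). It called 168 genes and no member between the compounds. This fit took in more than the 14290 genes, by a number not given here, so no background share is set beside its calls. By DESeq2 without the block 47, 3 and 24 genes were called, and by DESeq2 and limma without the block 0 members were. Values given with a library left out are from the fit without the block. Such a fit compares unequal replicate numbers, so its values also carry the difference between replicates and do not test the values with the block. A verb of change is used below only for genes that passed with the block, and the fit is named each time.

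The asparagine gene and the mitochondrial folate gene Mthfd2 ordered the libraries in the same way. Asns was at 167 and 210 CPM for vehicle, 179 and 214 for MASM7 and 195 and 236 for MFI8. Mthfd2 was at 185 and 221 CPM for vehicle, 193 and 234 for MASM7 and 211 and 248 for MFI8. In both genes replicate 2 was above replicate 1 in every group, the MFI8 libraries were the highest of their replicate number, and the groups overlapped.

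Against vehicle, Asns was higher with MFI8 by 0.19 ± 0.12 on the log2 scale without the block (adjusted p = 0.623, edgeR). With the block Asns rose by 0.19 ± 0.044, or 14.4% (adjusted p = 0.00862, edgeR). Mthfd2, which was higher by 0.18 ± 0.11 without the block (adjusted p = 0.621), rose by 0.18 ± 0.043, or 13.0%, with it (adjusted p = 0.0156, edgeR). In both genes the block left the size of the difference as it was and made its error smaller. The within-replicate differences in log2 CPM were 0.22 and 0.17 for Asns and 0.19 and 0.17 for Mthfd2 in replicates 1 and 2. Without the block, both differences depended on which library was left out. Leaving out 1 library also leaves the replicate numbers unequal between the groups, so these values carry the replicate difference as well. Asns was at 0.041 without vehicle replicate 1, 0.37 without vehicle replicate 2, 0.33 without MFI8 replicate 1 and 0.047 without MFI8 replicate 2, and Mthfd2 was at 0.057, 0.31, 0.29 and 0.054 in the same order.

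With MASM7 neither gene was called. Asns differed from vehicle by 0.064 ± 0.044 (adjusted p = 0.437, edgeR with the block) and Mthfd2 by 0.073 ± 0.043 (adjusted p = 0.357). Without the block and with 1 library left out, which leaves the replicate numbers unequal, both differences turned sign. They ran from -0.094 to 0.24 for Asns and from -0.071 to 0.21 for Mthfd2. The values with the block are smaller than those with MFI8, and the direct comparison of the compounds is given further on.

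Mthfd1l, the formate-releasing enzyme beside Mthfd2, was at 140 and 140 CPM for vehicle, 145 and 147 for MASM7 and 145 and 162 for MFI8. The libraries of each compound lay above both vehicle libraries, by little in 3 of the 4. Mthfd1l was not called with MFI8 (0.14 ± 0.048, adjusted p = 0.104, edgeR with the block) or MASM7 (0.061 ± 0.048, adjusted p = 0.511). Its difference with MFI8 was 0.053 without MFI8 replicate 2 and 0.22 without MFI8 replicate 1.

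Proline synthesis had 1 gene that passed with MFI8. Aldh18a1, which makes the glutamate semialdehyde precursor of proline, was at 224 and 244 CPM for vehicle, 241 and 275 for MASM7 and 251 and 279 for MFI8. Both MFI8 libraries were above both vehicle libraries, while the lower MASM7 library was just under the higher vehicle library. Aldh18a1 rose with MFI8 by 0.18 ± 0.043, or 13.3%, with the block (adjusted p = 0.0132, edgeR), against 0.18 ± 0.078 without it (adjusted p = 0.484), and without MFI8 replicate 2 the latter was 0.10. With MASM7 it differed by 0.14 ± 0.043 with the block, which missed the threshold (adjusted p = 0.0579, edgeR) and became 0.077 ± 0.031 with GC and length offsets added (adjusted p = 0.255). Without the block, that difference was 0.046 without MASM7 replicate 2, 0.083 without vehicle replicate 1 and 0.24 without MASM7 replicate 1.

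Pycr1, the reductase that finishes proline, was at 19.3 and 19.5 CPM for vehicle, 21.3 and 23.1 for MASM7 and 22.2 and 23.8 for MFI8. All 4 treated libraries lay above both vehicle libraries. Its difference from vehicle was the largest of any member with MFI8 (0.25 ± 0.080, adjusted p = 0.0693, edgeR with the block) and was 0.20 ± 0.079 with MASM7 (adjusted p = 0.1502), and neither passed. With the offsets added, Pycr1 was at 0.20 ± 0.071 with MFI8, below Asns at 0.22 ± 0.032, and at 0.13 ± 0.071 with MASM7. Pycr1 had the fewest counts of the members, between 439 and 734 per library, and the largest standard error of them with the block.

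Phgdh and Shmt2 were the members that passed with MASM7. Phgdh, the first enzyme of serine synthesis, was at 339 and 345 CPM for vehicle, 377 and 415 for MASM7 and 355 and 392 for MFI8. Shmt2 was at 466 and 469 CPM for vehicle, 515 and 558 for MASM7 and 494 and 525 for MFI8. For both genes the vehicle libraries were close together and below all 4 treated libraries.

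Phgdh rose with MASM7 by 0.21 ± 0.044, or 15.6%, with the block (adjusted p = 0.0101, edgeR), against 0.21 ± 0.065 without it (adjusted p = 0.473), and without MASM7 replicate 2 the latter was 0.14. Shmt2 rose by 0.20 ± 0.044, or 14.8%, with the block (adjusted p = 0.0124), against 0.20 ± 0.056 without it (adjusted p = 0.466, edgeR). Both calls were lost when offsets for GC content and transcript length were added to the block: the differences became 0.097 ± 0.031 for Phgdh (adjusted p = 0.145) and 0.088 ± 0.030 for Shmt2 (adjusted p = 0.179, edgeR). The longest transcripts of these genes had 57.2% and 57.4% GC, the highest of the 10 members, beside a median of 49.5% over the genes tested. With MFI8 the differences were 0.13 ± 0.044 for Phgdh (adjusted p = 0.101) and 0.12 ± 0.044 for Shmt2 (adjusted p = 0.100, edgeR with the block), and neither passed. With the offsets added these became 0.066 ± 0.031 and 0.055 ± 0.030. Without MFI8 replicate 2 they were 0.055 and 0.081, and without MFI8 replicate 1 Phgdh was at 0.20.

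The remaining members were not called in either comparison with vehicle. Psat1 was at 663 and 731 CPM for vehicle, 695 and 750 for MASM7 and 663 and 729 for MFI8, so that its MFI8 libraries lay within 3 CPM of the vehicle library of the same number. Its difference with MFI8 had a 95% interval of -0.090 to 0.086 with the block. Psph was at 59.2 and 66.9 CPM for vehicle, 61.8 and 75.5 for MASM7 and 59.1 and 76.8 for MFI8, and with each compound the replicate 2 library lay above both vehicle libraries while the replicate 1 library did not.

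Shmt1, the cytosolic hydroxymethyltransferase, was at 134 and 120 CPM for vehicle, 132 and 127 for MASM7 and 130 and 119 for MFI8. It was the 1 member whose replicate 2 library was below replicate 1 in every group. Its 95% interval with the block was -0.12 to 0.075 for MFI8 and -0.066 to 0.13 for MASM7 against vehicle. Psph overlaps Cct6a, and Shmt1 overlaps Smcr8 and Gm24945, on the opposite strand, as Psat1 does Gm3329 and Shmt2 does Ndufa4l2. On the same strand, Mthfd2 overlaps Gm43890, Aldh18a1 overlaps Gm15801, and Mthfd1l overlaps Gm16074 and Gm25515. These overlaps are of whole genes, introns included. Because the strand setting of the counting is not given in the sources used here, reads in the shared parts could not be assigned with certainty.

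**Figure D1:**
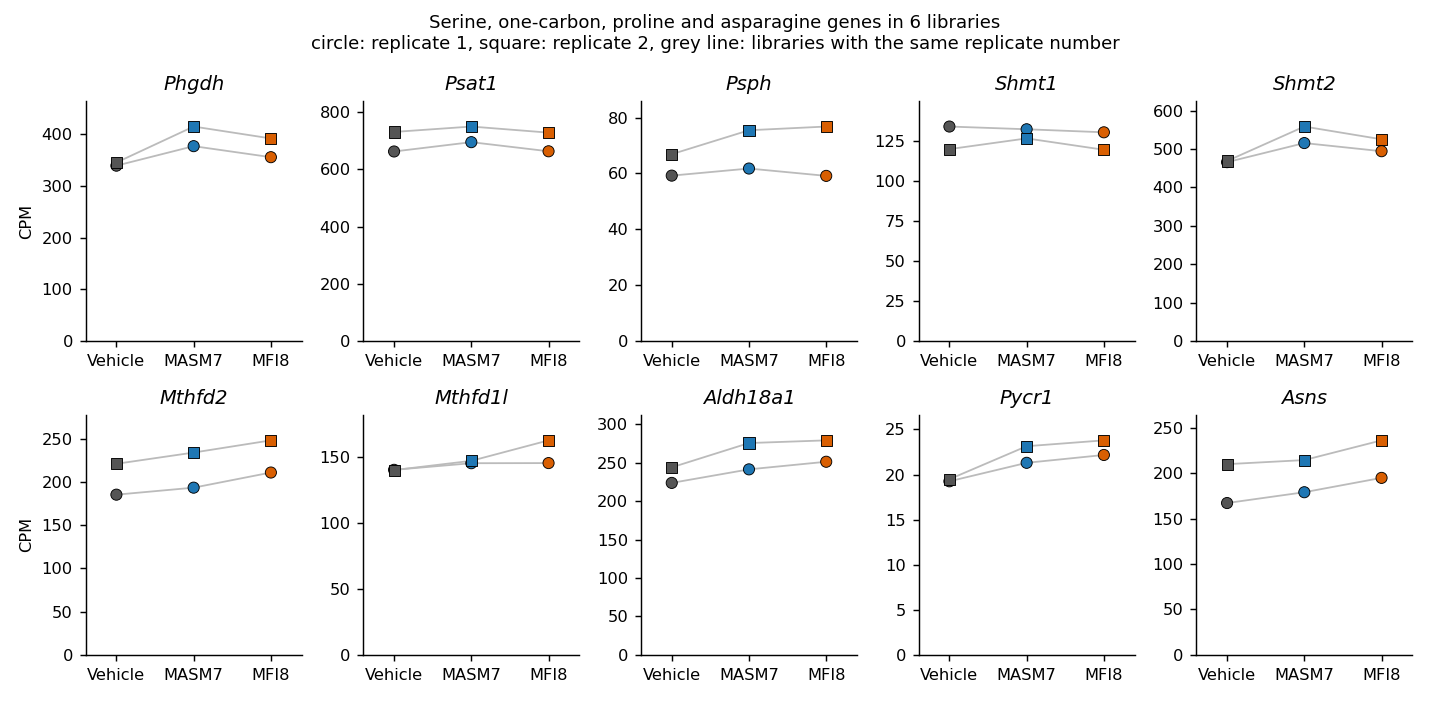
Levels of the 10 genes in the 6 libraries, in CPM on linear axes that start at 0, by treatment; circles are replicate 1, squares replicate 2 and grey lines join libraries with the same replicate number. In Phgdh, Shmt2 and Pycr1 the 4 treated libraries lie above both vehicle libraries, while in Asns and Mthfd2 the replicate lines run apart and are both highest with MFI8.

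The members together are described by counts and medians, with no test. They were chosen with earlier results of these data known, so the values over all genes are no test of the list. With MFI8, 8 of the 10 fold changes were positive (Shmt1 and Psat1 were the exceptions, and the sign of both turned with limma and that of Psat1 also with library size alone, without the count filter and with GC and length offsets), their median was 0.13 on the log2 scale and the median over all genes tested was 0.0027, where 7239 of 14290 were positive. With MASM7 all 10 were positive, with a median of 0.097 beside 0.00067 over all genes, where 7163 of 14290 were positive. With 1 library left out the members' median fell to 0.053 for MFI8 (without MFI8 replicate 2) and 0.049 for MASM7 (without MASM7 replicate 2). Both comparisons share the vehicle libraries, so these are not separate observations of vehicle.

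With the block, 3 members rose with MFI8 (Asns, Mthfd2 and Aldh18a1) and none fell, where 5.04% of all genes tested were called in either direction. With the block and offsets for GC content and length, Asns, Mthfd2 and Aldh18a1 were again the members called, and the background was 4.16%. With MASM7, 2 members rose with the block (Phgdh and Shmt2) and none fell, beside 3.88% of all genes. With the block and the offsets no member was called with MASM7 and the background was 1.06%.

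At an unadjusted p under 0.05 without the block, 2 members differed with MFI8 (Aldh18a1 and Pycr1), beside 9.86% of all genes, and 3 with MASM7 (Phgdh, Shmt2 and Pycr1), beside 10.2%. Both MFI8 libraries were above both vehicle libraries for 5 members (Phgdh, Shmt2, Mthfd1l, Aldh18a1 and Pycr1), and this held for 20.9% of all genes. Both MASM7 libraries were above both vehicle libraries for 4 members (Phgdh, Shmt2, Mthfd1l and Pycr1), and this held for 21.2% of all genes. No member had both treated libraries below both vehicle libraries with either compound, a pattern held by 19.3% of all genes with MFI8 and 21.6% with MASM7. Comparing libraries of the same number, 7 members were higher with MFI8 than with vehicle in both replicates, as were 32.4% of all genes, and 9 were higher with MASM7, as were 31.6%.

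**Figure D2:**
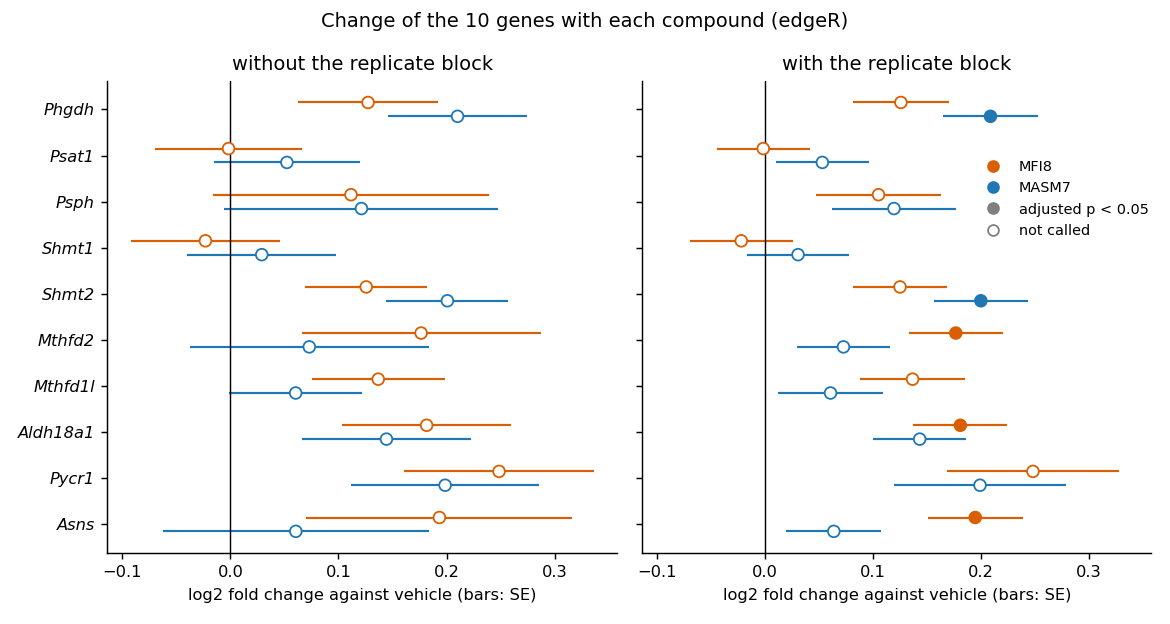
Log2 fold change of each gene against vehicle for MFI8 (orange) and MASM7 (blue), with bars of 1 standard error, in edgeR without the replicate block (left) and with it (right); filled points have an adjusted p under 0.05 over all 14290 genes. The points hardly move between panels while the bars shorten, and the filled points are Asns, Mthfd2 and Aldh18a1 for MFI8 and Phgdh and Shmt2 for MASM7, all with the block.

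The replicate numbers separated the libraries by more than the compounds did for several members. Replicate 2 was above replicate 1 in all 3 groups for 8 of the 10 members, a pattern found in 20.5% of all genes tested. The reverse pattern, found in 19.4% of all genes, held for Shmt1, and Mthfd1l was mixed. The summed fibroblast markers were lower in replicate 2 in all 3 groups, at 10040 and 8034 CPM for vehicle, 10130 and 9096 for MASM7 and 9337 and 7970 for MFI8, and their part in the replicate difference was not tested. Asns differed between replicates by 0.33 with vehicle, 0.26 with MASM7 and 0.28 with MFI8 on the log2 CPM scale, against a difference of 0.19 between MFI8 and vehicle.

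Mthfd2 showed the same order, with replicate differences of 0.25, 0.27 and 0.23 in vehicle, MASM7 and MFI8, and 0.18 between MFI8 and vehicle. For Psph the replicate differences were 0.18, 0.29 and 0.38. The vehicle libraries of Phgdh, Shmt2, Pycr1 and Mthfd1l differed by 0.026, 0.0093, 0.017 and -0.0022. In the treated groups these genes differed more between replicates, by 0.14 and 0.14 for Phgdh, 0.12 and 0.088 for Shmt2, 0.12 and 0.10 for Pycr1, and 0.017 and 0.16 for Mthfd1l with MASM7 and MFI8. The labels do not say what libraries with the same number share, and its part in these levels was not tested.

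**Figure D3:**
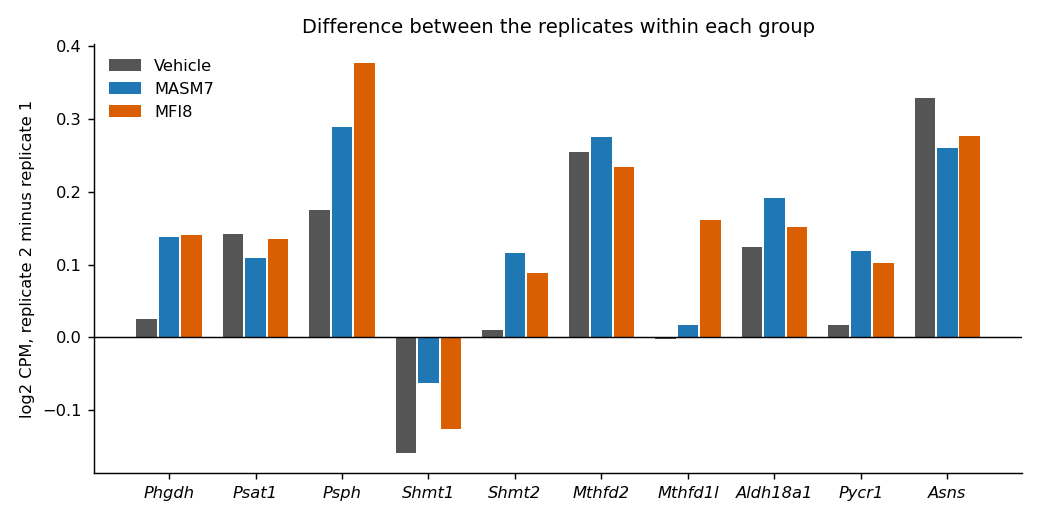
Log2 CPM of replicate 2 minus replicate 1 for each gene within vehicle (grey), MASM7 (blue) and MFI8 (orange). Bars above 0 in all 3 groups mark the 8 genes that were higher in replicate 2 throughout, with Asns, Mthfd2 and Psph the tallest, and Shmt1 is below 0 in all 3.

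MFI8 and MASM7 were also compared directly, which does not use the vehicle libraries other than for the shared estimate of spread. No member passed an adjusted p of 0.05 without the block or with it (edgeR), while 3.07% of all genes were called with the block, and 0 members had an unadjusted p under 0.05 without it, where 7.18% of all genes did. For no member were both MFI8 libraries above both MASM7 libraries, which held for 19.6% of all genes, or both below them, which held for 19.6% as well. The fold changes were positive for 5 members and negative for 5 (Psph turned positive with library size alone and with limma), with a median of 0.014 beside -0.0015 over all genes. This median ran from -0.041 without MASM7 replicate 1 to 0.11 without MFI8 replicate 1.

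The largest differences between the compounds were in Asns and Mthfd2. Asns was higher with MFI8 than with MASM7 by 0.13 ± 0.043 (95% interval 0.042 to 0.22, adjusted p = 0.105, edgeR with the block), and by 0.12 and 0.14 within replicates 1 and 2. Mthfd2 was higher by 0.10 ± 0.043 (95% interval 0.016 to 0.19, adjusted p = 0.220). With offsets for GC content and length added to the block, Asns (0.14 ± 0.031, adjusted p = 0.0118) and Mthfd2 (0.12 ± 0.030, adjusted p = 0.0286) were called, beside 4.72% of all genes. Leaving out 1 library, without the block, again left the replicate numbers unequal between the compounds. Asns was then at 0.0091 without MASM7 replicate 1, 0.27 without MASM7 replicate 2, 0.27 without MFI8 replicate 1 and -0.014 without MFI8 replicate 2. Mthfd2 was at -0.027, 0.25, 0.22 and -0.020 in the same order.

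In the other direction, Phgdh was lower with MFI8 than with MASM7 by a log2 fold change of -0.083 ± 0.044 (95% interval -0.17 to 0.0070, adjusted p = 0.371, edgeR with the block). Shmt2 gave -0.075 ± 0.044 (95% interval -0.16 to 0.015, adjusted p = 0.434). With the offsets added to the block, Phgdh was at -0.032 ± 0.031 and Shmt2 at -0.033 ± 0.030. With each library of these groups left out in turn, Phgdh ranged from -0.16 without MFI8 replicate 2 to -0.012 without MASM7 replicate 2, and Shmt2 from -0.13 without MASM7 replicate 1 to -0.016 without MASM7 replicate 2. The 95% intervals of the remaining 6 members with the block lay between -0.15 and 0.21 and each held 0. Without the offsets, a difference between the compounds was thus not shown for any member.

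The surrounding metabolism was described with a list of 39 further genes for serine and glycine use, the folate cycle, proline turnover, and asparagine, aspartate and glutamate, of which 36 were tested. Gldc, Cbs and Aldh1l1 had too few counts. Without the block none of the 36 was called with the count filter, while without that filter Gpt2 was called with MFI8 (adjusted p = 8.5e-05 against vehicle and 0.0153 against MASM7) and Pycrl with MASM7 (adjusted p = 0.0446, edgeR). With the block, 2 were higher and 1 was lower with MFI8, beside 5.04% of all genes, and 3 were higher and none lower with MASM7, beside 3.88%. With GC and length offsets added to the block, 2 were higher and 2 lower with MFI8, beside 4.16% of all genes. With MASM7 0 were called, beside 1.06%. The median log2 fold changes without the block were -0.0074 and -0.014.

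With MFI8, Gpt2, the mitochondrial enzyme that forms alanine from pyruvate and glutamate, rose by 0.37 ± 0.060 with the block (adjusted p = 0.000187, edgeR). It was at 55.2 and 60.3 CPM for vehicle, 54.9 and 66.5 for MASM7 and 65.3 and 84.7 for MFI8, so that both MFI8 libraries were above both vehicle libraries. Aldh1l2, the mitochondrial formyl-folate dehydrogenase, rose by 0.21 ± 0.056 (adjusted p = 0.0250, edgeR with the block). Mat2a, which makes S-adenosylmethionine, fell by 0.18 on the log2 scale (SE 0.044, adjusted p = 0.0132, edgeR with the block), from 482 and 426 CPM to 441 and 361 in replicates 1 and 2. By DESeq2 with the block Gpt2 (adjusted p = 0.00149) and Mat2a (adjusted p = 0.00604) were called and Aldh1l2 was not (adjusted p = 0.0994). Without MFI8 replicate 2, Gpt2 was at 0.18, Aldh1l2 at 0.088 and Mat2a at -0.041. Without MFI8 replicate 1, Aldh1l2 was at 0.33 and Mat2a at -0.33, and without vehicle replicate 1 Mat2a was at -0.084.

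With MASM7, the genes that rose with the block were Pycrl, Fpgs and Slc19a1. Pycrl (also called Pycr3), which encodes a pyrroline-carboxylate reductase like Pycr1, rose by 0.24 ± 0.052 (adjusted p = 0.0121, edgeR). Fpgs, which adds glutamates to folate and so holds it in the cell, rose by 0.22 ± 0.051 (adjusted p = 0.0182). Slc19a1, the reduced folate carrier, rose by 0.19 ± 0.054 (adjusted p = 0.0442, edgeR). With offsets for GC content and length added, none of these 3 was called and the differences became 0.13 for Pycrl, 0.095 for Fpgs and 0.11 for Slc19a1, and by DESeq2 with the block Slc19a1 was not (adjusted p = 0.114).

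Between the compounds, Gpt2 (0.30 ± 0.059, adjusted p = 0.00241, edgeR with the block) and Mtr, the methionine synthase (0.20 ± 0.056, adjusted p = 0.0478), were higher with MFI8 than with MASM7. Mtr was at 56.7 and 57.0 CPM for vehicle, 52.2 and 51.0 for MASM7 and 59.9 and 58.5 for MFI8. It was not called against vehicle with either compound, and its call between the compounds was lost by DESeq2 with the block (adjusted p = 0.378) and with GC and length offsets added (adjusted p = 0.15, edgeR). With those offsets Gpt2 was the 1 listed gene called higher, and 3 were called lower with MFI8 than with MASM7: Mat2a (-0.14 ± 0.032, adjusted p = 0.0155), Mthfd2l (-0.22 ± 0.057, adjusted p = 0.0328) and Atic (-0.11 ± 0.030, adjusted p = 0.0469), of which Mthfd2l and Atic were named here after their values were seen. Of all genes, 3.07% were called between the compounds with the block and 4.72% with the offsets added to it. The Gpt2 difference was 0.18 without MASM7 replicate 1, 0.48 without MFI8 replicate 1 and 0.10 without MFI8 replicate 2.

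**Figure D4:**
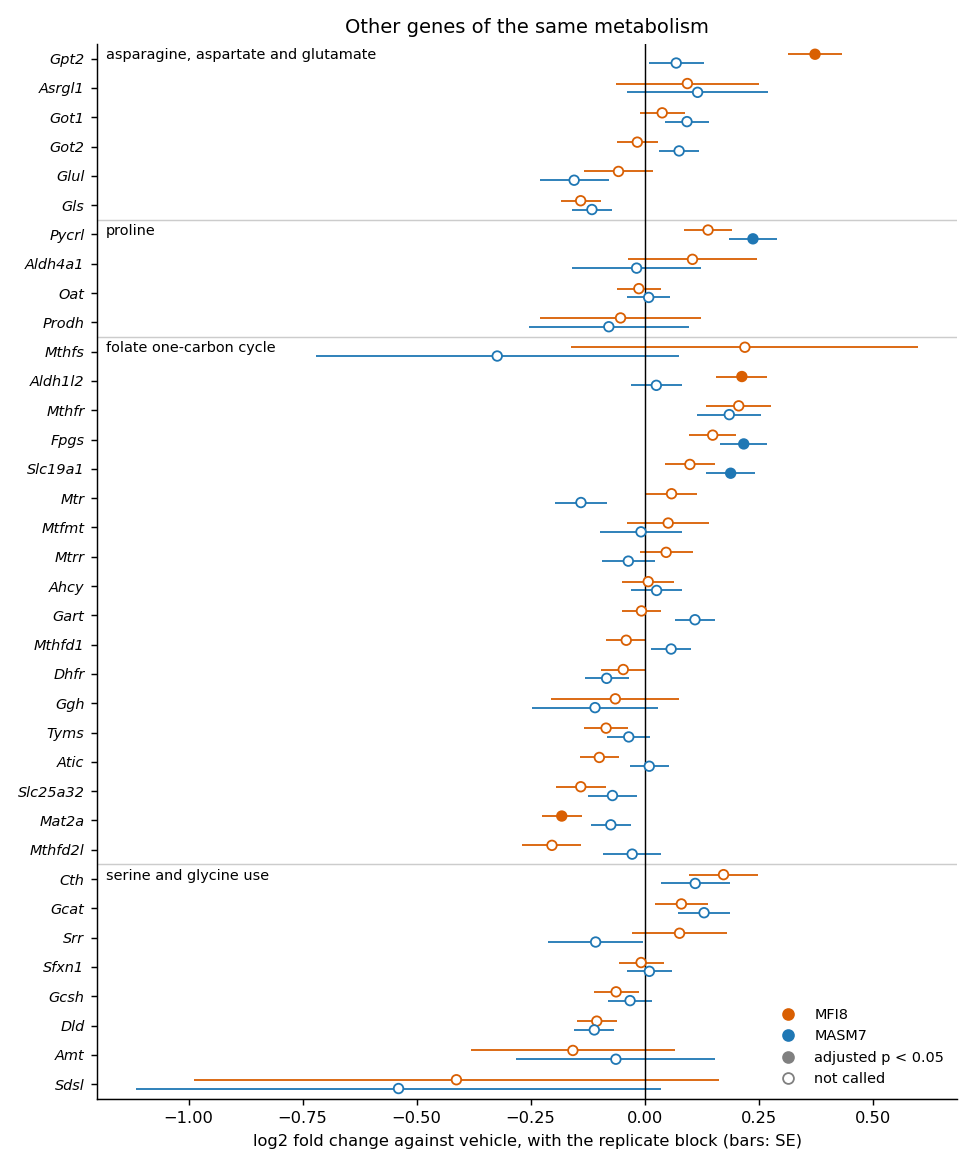
Log2 fold change against vehicle, from edgeR with the replicate block and with bars of 1 standard error, of the 36 tested genes of the surrounding metabolism for MFI8 (orange) and MASM7 (blue); filled points have an adjusted p under 0.05. Most points lie near 0, and the filled ones are Gpt2, Aldh1l2 and Mat2a for MFI8 and Pycrl, Fpgs and Slc19a1 for MASM7.

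Transcription factors known to act on these genes were read alongside them. Atf4 was at 415 and 436 CPM for vehicle, 441 and 491 for MASM7 and 478 and 510 for MFI8. It rose with MFI8 by 0.22 ± 0.043 with the block (adjusted p = 0.00279, edgeR) and differed by 0.13 ± 0.043 with MASM7 (adjusted p = 0.0829), which became 0.040 ± 0.030 with GC and length offsets added (adjusted p = 0.619, edgeR). This Atf4 difference was 0.052 without MASM7 replicate 2 and 0.21 without MASM7 replicate 1. Ddit3, which encodes CHOP, rose with MFI8 by 0.74 ± 0.10 with the block (adjusted p = 2.2e-05, edgeR), from 12.1 and 11.2 CPM to 17.5 and 21.3.

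Myc rose with MFI8 by 0.34 ± 0.051 and Nfe2l2, which encodes NRF2, fell by 0.35 on the log2 scale (SE 0.052), both with the block (adjusted p = 7.2e-05 and 7.0e-05, edgeR). Without vehicle replicate 2, Myc differed by 0.23. With MASM7 none of the 4 factors was called. The levels of these mRNAs do not measure the activity of the proteins, and their part in the members' levels was not tested.

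The genes most like the members in pattern were found by correlating each of 8880 genes with a mean of at least 10 CPM with the mean standardised log2 CPM of the 10 members over the 6 libraries. The mean profile was -0.94 and -0.39 for vehicle, -0.19 and 0.86 for MASM7 and -0.24 and 0.90 for MFI8, so that the replicate 2 libraries of both compounds were highest. The 5 genes most alike were Fstl3 (Pearson r = 0.999), Coq2 (r = 0.991), Chmp7 (r = 0.991), Pomk (r = 0.989) and Rubcn (r = 0.988). In all, 60 genes had an r of at least 0.95. The 6 points share libraries, treatment groups and replicate numbers, and these values are a description with no test.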

How the data were processed

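RNA-seq was carried out on 6 libraries of WT MEFs. Reads were demultiplexed (bcl2fastq), trimmed (Trimmomatic), mapped to the GRCm38 genome (STAR) and assigned to exons (featureCounts) by the authors, who deposited whole-number counts for each gene as well as TPM values, scaled to gene length and library size. The authors' normalized counts were not used. The annotation release and the strand setting are not given in the sources used here.

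The counts were filtered with filterByExpr and scaled with TMM, and a model of all 6 libraries with 1 coefficient per group was fitted (edgeR 4.0.16, R 4.3.3). Differences were called by the quasi-likelihood F test at a Benjamini-Hochberg adjusted p of 0.05. The common dispersion was 0.00394. Single-library log2 CPM used a prior count of 2. DESeq2 1.42.0 and limma 3.58.1, on log2(TPM + 1), served as alternatives, beside other scalings, filters, a replicate block, GC and length offsets and leaving out each library. The differences of replicate 2 from replicate 1 in log2 CPM were correlated between groups. The correlations were weak over all genes tested, at 0.152 to 0.188, and were 0.508 to 0.621 over the 7145 more highly expressed of them. On this ground the numbers were taken as pairing the libraries, although the labels do not say what they share. The fits were tested on simulated data. With 2 libraries against 2, an exact two-sided permutation test cannot go below p = 0.333.

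The members and gene lists were chosen with earlier results of these data known. The differences between libraries of the same number were added after seeing the data. All members were named. Of the wider list, up to 3 genes per direction and comparison with the smallest p among those called were named, as were 4 transcription factors and the 5 genes most alike in pattern. A gene of the wider list is not reported here. Pycr3 was matched to Pycrl in the files through RefSeq synonyms. Promoter sequences are from RefSeq (GRCm38.p6), and all 10 members matched. Phgdh-ps1, a pseudogene of Phgdh, had 0 to 5 counts per library.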

Additional observations from a re-analysis of the deposited data

How the results depend on the processing

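Calls among the members were made with the replicate block or, for Phgdh and Shmt2 with MASM7, without the count filter. The number of genes called in edgeR without the block was 0 in all 3 comparisons. For MFI8 against vehicle it became 256 without the count filter, 720 with the replicate block, 595 with GC and length offsets and the block, 47 by DESeq2 and 224 by DESeq2 with the block. For MASM7 against vehicle it became 127, 554, 152, 3 and 193 in the same order, and 1 with only the 2 groups compared in the fit. For MFI8 against MASM7 it became 168, 439, 675, 24 and 112, and 2 with only the 2 groups compared. Members called became 3 for MFI8 against vehicle under each of the 3 fits with the block, beside 720, 595 and 224 of 14290 genes. For MASM7 against vehicle they became 2 without the count filter, beside 127 of a larger number of genes. With the block they became 2 in edgeR and 2 by DESeq2, beside 554 and 193 of 14290. For MFI8 against MASM7 they became 2 with GC and length offsets and the block, beside 675 of 14290. The cause of these differences between fits was not tested.

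Without each library in turn, 0 to 26 genes were called for MFI8 against vehicle, 0 to 2 for MASM7 against vehicle and 0 to 24 for MFI8 against MASM7, with 0 members. Where a group had 1 library left, that library was assumed to vary like the other groups. The median of the members ranged from 0.053 without MFI8 replicate 2 to 0.24 without MFI8 replicate 1 (MFI8 against vehicle), from 0.049 without MASM7 replicate 2 to 0.22 without MASM7 replicate 1 (MASM7 against vehicle), and from -0.041 without MASM7 replicate 1 to 0.11 without MFI8 replicate 1 (MFI8 against MASM7).

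The sign of small differences turned with some settings. For MFI8 against vehicle, Psat1 became 0.0086 with library size alone, 0.0058 without the count filter, 0.025 with limma, 0.0043 with GC and length offsets and 0.0042 with these and the block, and Shmt1 became 0.0049 with limma. For MFI8 against MASM7, Psph became 0.011 with library size alone and 0.024 with limma. Leaving out 1 library gave, for MFI8 against vehicle, -0.071 to 0.071 for Psat1, -0.093 to 0.29 for Psph and -0.10 to 0.060 for Shmt1. For MASM7 against vehicle it gave -0.094 to 0.24 for Asns, -0.017 to 0.13 for Psat1, -0.030 to 0.26 for Psph, -0.049 to 0.11 for Shmt1, -0.071 to 0.21 for Mthfd2, -0.030 to 0.082 for Aldh1l2, -0.072 to 0.20 for Gpt2 and -0.20 to 0.052 for Mat2a. For MFI8 against MASM7 it gave -0.014 to 0.27 for Asns, -0.12 to 0.015 for Psat1, -0.22 to 0.17 for Psph, -0.11 to 0.010 for Shmt1, -0.027 to 0.25 for Mthfd2, -0.0079 to 0.16 for Mthfd1l, -0.055 to 0.14 for Aldh18a1, -0.0081 to 0.11 for Pycr1 and -0.25 to 0.030 for Mat2a.

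Library size alone shifted the median of all genes by 0.011, -0.011 and 0.021. The groups hold 2 libraries each, too few to test a library as an outlier. The p-values rest on the spread between these libraries. With the block they rest on the spread left once the difference between replicate numbers is removed.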
